A study of Mus musculus with 6 samples.

Results

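NADPH oxidase 4 and the enzymes that remove superoxide and peroxide were followed in mouse granulosa cells (GCs) exposed to the androgen dihydrotestosterone (DHT). The genes were chosen by name: *Nox4* and *Cyba* as the source of reactive oxygen, *Sod1*, *Sod2* and *Sod3* for superoxide removal, and *Cat*, *Gpx1*, *Gpx3*, *Gpx4* and *Gpx8* for peroxide removal. All 10 were found among the 16300 genes of the deposited table, and all 10 were among the 16292 genes that were tested, those whose normalized counts averaged 10 or more over the libraries. GCs line the ovarian follicle and nurse its oocyte, and DHT is an androgen that aromatase cannot turn into estrogen. RNA-seq covered 6 libraries: 3 control libraries, and 3 from GCs kept with 25 nM DHT for 24 h. All 6 came from wild-type C57BL/6J mice of 8 to 9 weeks, with GCs from 5 mice pooled for each library, kept 48 h in culture and starved of serum for 4 h before treatment. The labels describe the extracted material as whole ovary while naming GCs as the cell type, so the cell type was checked against marker genes.

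NADPH oxidases carry electrons across a membrane to oxygen. NOX4 works in complex with p22phox, the product of *Cyba*, needs no cytosolic activator and releases mostly hydrogen peroxide. Superoxide dismutases turn superoxide into hydrogen peroxide in the cytosol (SOD1), in mitochondria (SOD2) and outside the cell (SOD3). Catalase, a peroxisomal heme enzyme, and the glutathione peroxidases then reduce peroxide. In the ovary, reactive oxygen is known to take part in ovulation and in the loss of follicles.

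GPX1, GPX3 and GPX4 carry selenocysteine at the active site, which is encoded by a TGA codon that would elsewhere end translation, whereas GPX8 carries cysteine. The coding stretch around that codon is shown because it separates the glutathione peroxidases that need selenium from the one that does not. The stretches are 33 bases of GENCODE transcripts on GRCm38, written 5′ to 3′ on the strand of the gene, with the annotated selenocysteine codon in capitals and, in *Gpx8*, the codon at the same place of the best in-frame match.
Gpx1 (chr9:108339436-108339468, plus strand): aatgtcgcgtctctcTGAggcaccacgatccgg
Gpx3 (chr11:54907241-54907273, plus strand): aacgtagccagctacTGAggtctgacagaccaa
Gpx4 (chr10:80054722-80054754, plus strand): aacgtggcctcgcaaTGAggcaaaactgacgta
Gpx8 (chr13:113045646-113045678, minus strand): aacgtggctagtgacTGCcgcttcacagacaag
Each stretch lay within a single coding exon. The *Gpx3* and *Gpx8* stretches shared 22 of 33 bases, the most of any pair, and the *Gpx1* and *Gpx3* stretches shared 16, the fewest.

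With DHT, the transcript of the oxidase rose while those of 3 antioxidant enzymes fell. *Nox4* rose 2.19-fold. *Cat* fell by 29.5%, *Sod3* fell by 40.4% and *Gpx1* fell by 14.6%, and the other 6 genes did not pass the test. The test was limma's moderated test on log2(normalized count + 1) over all 16292 genes, with p adjusted by Benjamini-Hochberg and called at 0.05. Fold changes are on this log2 scale, where positive values are higher in DHT. Of the 10 genes, 1 was called higher, where 6.52% of all tested genes were, and 3 were called lower, where 4.66% of all tested genes were. Only *Nox4* among the 10 also had an absolute log2 fold change above 1, a pair of thresholds that 1.31% of all tested genes passed, 0.908% higher and 0.399% lower. The median log2 fold change of the 10 genes was -0.10, and that of all tested genes was -0.01. The 3 DHT libraries lay wholly above the 3 control libraries in 1 of the 10 genes, against 15.9% of all tested genes, and wholly below them in 5 of the 10, against 14.7% of all tested genes, so that 6 of 10 were without overlap where 30.6% of all tested genes were. The 10 genes were chosen with earlier results of these data known, so these counts describe them and do not test them as a group. The fitted differences with their intervals are drawn in the plot of changes with DHT. In such bulk libraries, a smaller number of cells of a type and less RNA in each cell cannot be told apart.

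**Figure D1:**
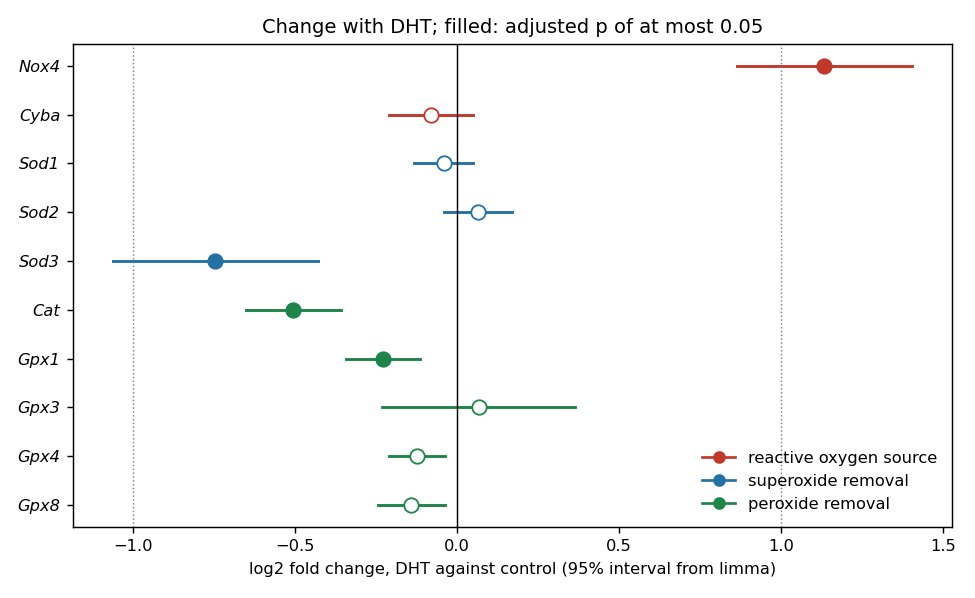
Log2 fold change of each gene, DHT against control, on the horizontal axis, with 95% intervals from limma as lines, colours for the role of the gene and dotted lines at -1 and 1. Filled points passed an adjusted p of 0.05: *Nox4* lies at 1.13, and *Cat*, *Sod3* and *Gpx1* lie at -0.50, -0.75 and -0.23.

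The libraries held between 36111177 and 41928585 reads on genes. Of 11 listed GC markers 10 were tested, and *Cyp19a1*, which encodes aromatase and is a main GC marker, was not among the genes of the table used here. No gene of the table averaged fewer than 10.17 reads over the libraries, and the reason why *Cyp19a1* is absent is not given in the sources used here. The 10 summed to 136362 to 154329 normalized counts in control and 121543 to 136248 in DHT, so the DHT sums lay below the control sums by a narrow margin. Of these markers 1 was called higher and 2 lower, where 6.52% and 4.66% of all tested genes were, by limma with Benjamini-Hochberg adjustment: *Hsd17b1*, a steroid dehydrogenase, at 0.48, *Inha*, the alpha chain of inhibin, at -0.61, and *Foxl2*, an ovarian transcription factor, at -0.15 on the log2 fold change scale. The call of *Foxl2* was lost under 9 of 16 alternatives, among them TMM scaling and leaving out any library other than control replicate 3, and that of *Hsd17b1* without the intensity trend of the fit. *Inhba*, an inhibin beta chain, averaged 40288 ± 5839 without and 41425 ± 3609.6 with DHT (SD, n = 3), while *Fshr*, the receptor of follicle-stimulating hormone, averaged 150.1 and 145 and *Amh*, anti-Mullerian hormone, 130.3 and 126. The theca genes *Cyp17a1* and *Insl3*, the leukocyte genes *Adgre1* and *Cd3e* and all 6 erythroid markers were not among the genes of the table. The theca and interstitial markers *Ptch1* and *Nr2f2* were in it, at 2543 and 1485 normalized counts in control and 2218 and 1322 in DHT. So were 5 leukocyte markers, the most abundant of them *Lyz2* at 274 in control and 263 in DHT. DHT replicate 2 stood apart in oocyte markers, whose sum was 118 normalized counts there and 409 to 934 in the other 5 libraries, and without this library *Nox4* (1.14), *Cat* (-0.51), *Sod3* (-0.72) and *Gpx1* (-0.26) were still called, by limma with Benjamini-Hochberg adjusted p of 0.0037, 0.0092, 0.045 and 0.041.

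*Nox4* (ENSMUSG00000030562; GRCm38 chromosome 7, 87246096 to 87398710, plus strand) encodes the catalytic chain. Its normalized counts were 467, 611 and 428 in control replicates 1 to 3 and 1031, 1077 and 1164 in DHT replicates 1 to 3. Every DHT library was above every control library, and the control library with the most *Nox4*, replicate 2, held 611 where the lowest DHT library held 1031. The control mean was 502 ± 96.1 and the DHT mean 1091 ± 67.6 (SD, n = 3). The log2 fold change was 1.13 with an SE of 0.12 and a 95% interval of 0.86 to 1.40 (limma, Benjamini-Hochberg adjusted p = 0.00055). By p, *Nox4* ranked 159 among the 16292 genes. Leaving out each library in turn gave log2 fold changes of 1.03 to 1.28.

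*Cyba* (ENSMUSG00000006519; chromosome 8, 122424776 to 122432930, minus strand) encodes p22phox, the membrane chain without which NOX4 is not active. Its normalized counts were 1562, 1633 and 1485 in control and 1408, 1442 and 1576 in DHT. The groups overlapped, since DHT replicate 3 was above control replicates 1 and 3. The log2 fold change was -0.08 with a 95% interval of -0.21 to 0.05, or -13.6% to 3.44% (limma, Benjamini-Hochberg adjusted p = 0.43). A rise in *Cyba* of the size seen in *Nox4* lies outside this interval.

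Since the chains belong to the same complex, *Nox4* was also expressed relative to *Cyba* within each library, a measure that a single scaling factor for each library cannot move. For every 100 normalized counts of *Cyba*, there were 29.9, 37.4 and 28.8 of *Nox4* in control and 73.2, 74.7 and 73.9 in DHT. The DHT libraries lay close together and all above the control libraries. The log2 ratio was higher by 1.22 in DHT, with SDs of 0.20 in control and 0.014 in DHT. The exact two-sided permutation test over the libraries gave p = 0.1, the smallest that 3 against 3 libraries allow, and the difference ranged from 1.14 to 1.33 when each library was left out.

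**Figure D2:**
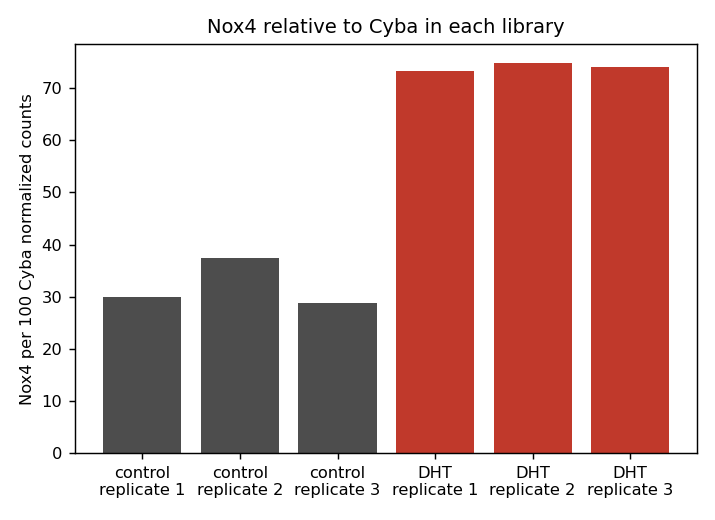
Normalized counts of *Nox4* for every 100 of *Cyba* (vertical axis, from 0) in each of the 6 libraries, with control bars in grey and DHT bars in red. The DHT bars stand at 73.2 to 74.7 and the control bars at 28.8 to 37.4.

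Of the other NADPH oxidases and their subunits, 6 of the 15 listed genes were in the table, and 1 was called, higher, where 6.52% of all tested genes were. This was *Ncf1*, the cytosolic organizer p47phox of the phagocyte oxidase, a rare transcript with 12.9, 16.7 and 15.7 normalized counts in control and 39.1, 36.0 and 44.6 in DHT. All DHT libraries were above all control libraries, and its log2 fold change was 1.35 ± 0.23 (SE; limma, Benjamini-Hochberg adjusted p = 0.0061). With a mean of at least 50 normalized counts as the filter, *Ncf1* was not tested. *Cybb*, the catalytic chain of the same oxidase, was at 44.9 normalized counts in control and 46.0 in DHT, a log2 fold change of 0.01. *Nox1*, another catalytic chain, was at 13.2 ± 5.84 in control and 14.5 ± 4.94 in DHT, and *Rac1*, a GTPase of NOX1 and NOX2 complexes, was at 10978 ± 325 and 11154 ± 159 (SD, n = 3). *Poldip2*, a NOX4 partner that binds p22phox, had a log2 fold change of 0.06 with a 95% interval of -0.06 to 0.17.

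Some markers of smooth muscle moved in the direction of *Nox4*. Of 6 listed markers of smooth muscle and pericytes, 5 were tested and 3 were called higher, where 6.52% of all tested genes were: the contractile genes *Acta2* (log2 fold change 0.76), *Myh11* (0.67) and *Cnn1* (0.67), by limma with Benjamini-Hochberg adjusted p of 0.0056, 0.013 and 0.037. The summed level of the 5 was 4684 to 6884 normalized counts in control and 8741 to 10378 in DHT, so the groups did not overlap. *Des*, which encodes desmin, was at 0.25 with a 95% interval of -0.33 to 0.84, and *Pdgfrb*, a pericyte receptor, at 0.21 with one of -0.23 to 0.64. *Acta2* held most of the sum, with 4293, 6425 and 5479 in control and 8217, 9086 and 9735 in DHT. Without DHT replicate 2 or without DHT replicate 3, *Acta2* was the only 1 of the 3 still called, and *Cnn1* was also lost without control replicate 1, control replicate 3 or DHT replicate 1. None of the 3 was called without the intensity trend of the fit. Their part in the change of *Nox4* was not tested. Of 6 fibroblast, 4 endothelial and 8 oocyte markers, limma, edgeR and DESeq2 each called 0, and 1, 0 and 0 had an unadjusted p of at most 0.05 in limma. The 1 was the fibroblast marker *Dcn*, which encodes decorin, at -1.05 with a 95% interval of -1.86 to -0.24. Over all 16292 tested genes, an unadjusted p of 0.051 in limma ranked 4126 from the lowest. Of 5 leukocyte markers, 1 was called lower, where 4.66% of all tested genes were, and 0 higher. The lower one was *Csf1r*, a receptor of macrophages (-0.64, limma, Benjamini-Hochberg adjusted p = 0.027), a call lost without control replicate 1, DHT replicate 2 or DHT replicate 3. *Ptprc*, the leukocyte antigen CD45, averaged 8.47 normalized counts in control and 14.3 in DHT, a log2 fold change of 0.72 with a 95% interval of -0.03 to 1.47 and no overlap between the groups, and *Cd14* was at 0.23 with one of -0.33 to 0.79.

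The genes whose log2 values over the 6 libraries were most like those of *Nox4* were *Cacna1g*, a T-type calcium channel (Pearson's r = 0.998), *Wisp1*, a matricellular protein (0.997), *Manf*, a secreted endoplasmic reticulum protein (0.997), *Pgm5*, a protein of adherens junctions (0.996), and *Slc25a18*, a mitochondrial glutamate carrier (0.996). Their own log2 fold changes were 1.52, 0.73, 0.33, 1.91 and 0.78. Among the antioxidant genes, r with *Nox4* was -0.98 for *Sod3* and -0.98 for *Cat*, -0.85 for *Gpx1*, -0.84 for *Gpx4*, 0.70 for *Sod2*, -0.70 for *Gpx8*, -0.62 for *Sod1* and 0.25 for *Gpx3*. These are descriptions over 6 libraries in 2 groups, so any genes that differ between the groups share this pattern.

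The superoxide dismutases differed from each other in how they moved. *Sod3* (ENSMUSG00000072941; chromosome 5, 52363791 to 52371418, plus strand), which encodes the secreted copper and zinc enzyme, had 253, 181 and 235 normalized counts in control and 141, 127 and 127 in DHT. The groups did not overlap, and control replicate 2 lay closest to the DHT libraries. The means were 223 ± 37.5 and 132 ± 8.08 (SD, n = 3), with a log2 fold change of -0.75 ± 0.14 (SE) and a 95% interval of -1.06 to -0.43 (limma, Benjamini-Hochberg adjusted p = 0.0099). The call held when any library was left out, with log2 fold changes of -0.89 to -0.65 and Benjamini-Hochberg adjusted p of 0.0043 to 0.048 in limma.

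*Sod1* (ENSMUSG00000022982; chromosome 16, 90220754 to 90226329, plus strand), the cytosolic copper and zinc enzyme, had 8204, 7498 and 7810.4 normalized counts in control and 7634, 7613 and 7588 in DHT. The 3 DHT values lay between the control values. The log2 fold change was -0.04 with a 95% interval of -0.13 to 0.05 (limma, Benjamini-Hochberg adjusted p = 0.58). *Sod2* (ENSMUSG00000006818; chromosome 17, 13006846 to 13040063, plus strand), the mitochondrial manganese enzyme, had 2191, 2230.3 and 2096 in control and 2159.7, 2344 and 2311 in DHT, again with overlap. Its log2 fold change was 0.06 with a 95% interval of -0.04 to 0.17 (limma, Benjamini-Hochberg adjusted p = 0.44). For these intracellular enzymes the intervals in percent ran from -8.74% to 3.49% for *Sod1* and from -2.82% to 12.5% for *Sod2*. Reads that these genes share with near-identical sequence, a 465-base match of *Sod1* to the pseudogene *Gm8566* at 97.8% identity and a 3110-base match of *Sod2* to a transcript of *Rps6ka2* at 98.3%, are uncertain in their counting.

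**Figure D3:**
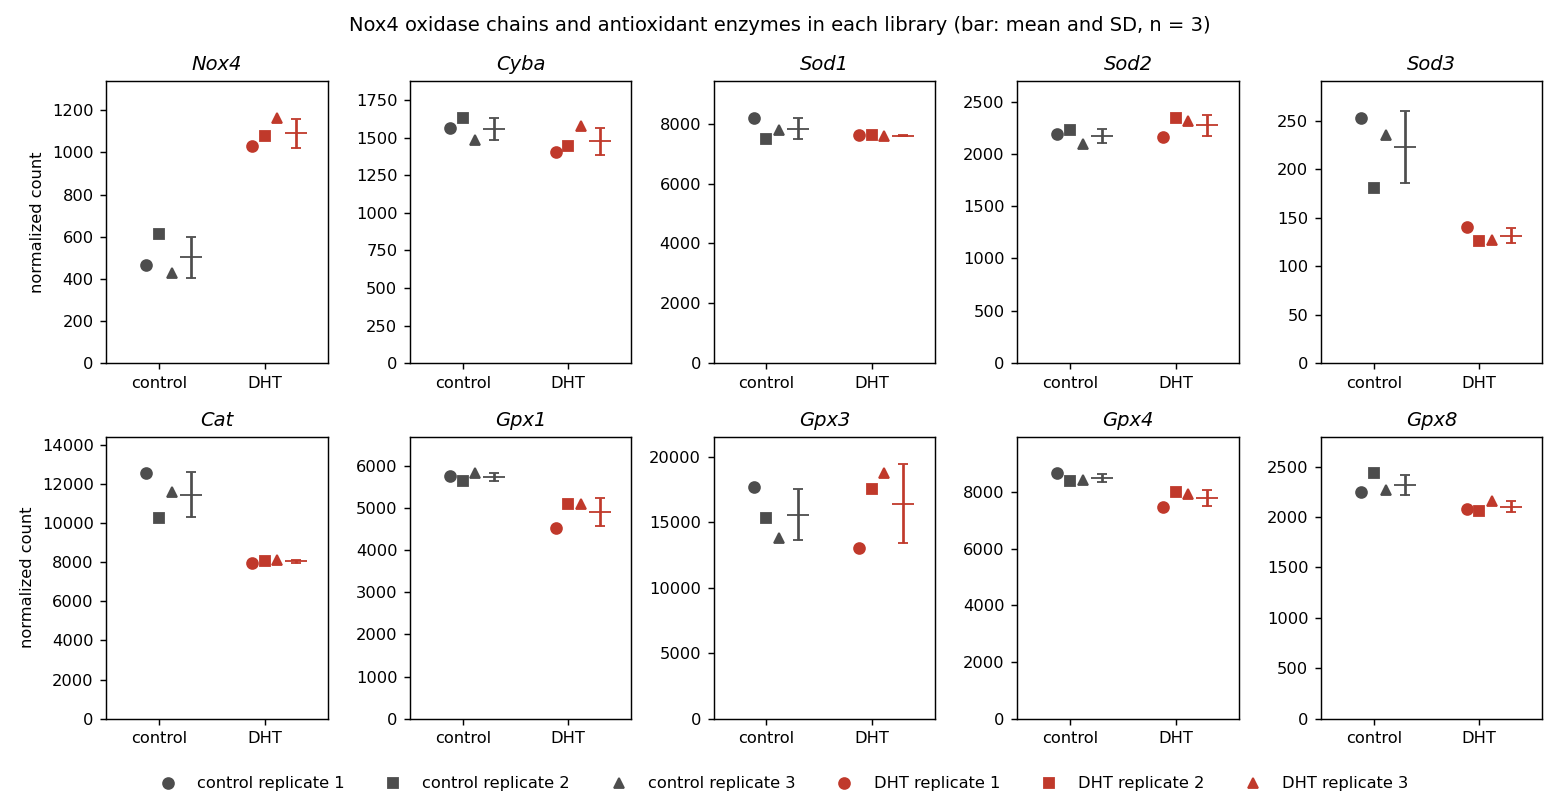
Normalized counts (vertical axes, from 0) of the 10 genes in each control library (grey) and DHT library (red), with marker shapes for replicate numbers, and the mean with its SD beside the points. *Nox4* lies higher in the 3 DHT libraries without overlap, *Sod3*, *Cat*, *Gpx1*, *Gpx4* and *Gpx8* lie lower without overlap, and the other 4 genes overlap.

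Among the enzymes that remove peroxide, 2 of 5 were called lower, where 4.66% of all tested genes were, and 4 of 5 lay lower in all DHT libraries, where 14.7% of all tested genes did. *Cat* (ENSMUSG00000027187; chromosome 2, 103453849 to 103485160, minus strand), which encodes catalase, had 12544, 10245 and 11588 normalized counts in control and 7962, 8068 and 8112 in DHT. The DHT libraries were close together, and the lowest control library was above them all. The means were 11459 ± 1155 and 8048 ± 76.9 (SD, n = 3). The log2 fold change was -0.50 ± 0.06 (SE) with a 95% interval of -0.65 to -0.36 (limma, Benjamini-Hochberg adjusted p = 0.0015), and it ranged from -0.58 to -0.44 when each library was left out.

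*Gpx1* (ENSMUSG00000063856; chromosome 9, 108338903 to 108340343, plus strand), the cytosolic and mitochondrial selenoenzyme, had 5759, 5642 and 5827 normalized counts in control and 4526, 5102 and 5106 in DHT. No DHT library reached the control libraries, and DHT replicate 1 was the lowest. The means were 5742 ± 93.7 and 4911 ± 334 (SD, n = 3), and the log2 fold change was -0.23 ± 0.05 (SE) with a 95% interval of -0.34 to -0.11 (limma, Benjamini-Hochberg adjusted p = 0.022). The call was lost under 3 of the alternatives, among them without control replicate 1 (log2 fold change -0.23, limma, Benjamini-Hochberg adjusted p = 0.051) and without the intensity trend of the fit (limma, Benjamini-Hochberg adjusted p = 0.11), so *Gpx1* was the least secure of the 4 called genes.

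*Gpx4* (ENSMUSG00000075706; chromosome 10, 80047166 to 80056439, plus strand) reduces lipid hydroperoxides in membranes. It had 8654, 8388 and 8420.0 normalized counts in control and 7462, 7996 and 7918 in DHT. *Gpx8* (ENSMUSG00000021760; chromosome 13, 113042753 to 113046410, minus strand), a peroxidase of the endoplasmic reticulum membrane, had 2245, 2432 and 2271 in control and 2078, 2058 and 2161 in DHT. In both genes the DHT libraries lay below the control libraries, by margins that did not pass the test. The log2 fold changes were -0.12 with a 95% interval of -0.21 to -0.04 for *Gpx4* and -0.14 with one of -0.24 to -0.04 for *Gpx8* (limma, Benjamini-Hochberg adjusted p = 0.077 and 0.084). *Gpx4* shares 762 bases at 99.7% identity with *Gpx4-ps2*, and reads in that stretch are uncertain in their counting.

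*Gpx3* (ENSMUSG00000018339; chromosome 11, 54902453 to 54910377, plus strand) encodes the secreted glutathione peroxidase. It had 17676, 15308 and 13797 normalized counts in control and 13028, 17553 and 18751 in DHT. The groups overlapped over most of their ranges, and both the lowest and the highest library were DHT libraries. The log2 fold change was 0.07 with a 95% interval of -0.23 to 0.37 (limma, Benjamini-Hochberg adjusted p = 0.81), and its sign turned without control replicate 3 (-0.018) or without DHT replicate 3 (-0.037). The interval in percent, -14.8% to 28.8%, includes a fall as large as that of *Gpx1*.

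Divided by exonic length, the levels of the 10 genes spanned more than 2 orders of magnitude. The lengths are unions of all GENCODE exons, so genes with long alternative exons, such as *Nox4* (8471 bases) and *Sod2* (10008 bases), are placed low. In control GCs the highest level per kb was that of *Gpx3* (8601 ± 1079), followed by *Gpx4* (4923 ± 84.2), *Cat* (4385 ± 442), *Gpx1* (3985 ± 65.0), *Gpx8* (2209.8 ± 96.7), *Sod1* (1974 ± 89.1) and *Cyba* (1501 ± 71.1), in normalized counts per kb with SD and n = 3. Much lower were *Sod2* (217 ± 6.87), *Sod3* (59.7 ± 10.04) and *Nox4* (59.2 ± 11.3). In this order the ranges of *Cat* and *Gpx1* overlapped, as did those of *Sod3* and *Nox4*, and the ranges of the other neighbours did not. In DHT-treated GCs both overlapping pairs had come apart and changed places: *Gpx1* stood at 3408 ± 232 per kb against 3080 ± 29.4 for *Cat*, and *Nox4* at 129 ± 7.99 against 35.2 ± 2.16 for *Sod3*. The other 6 genes kept their places.

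**Figure D4:**
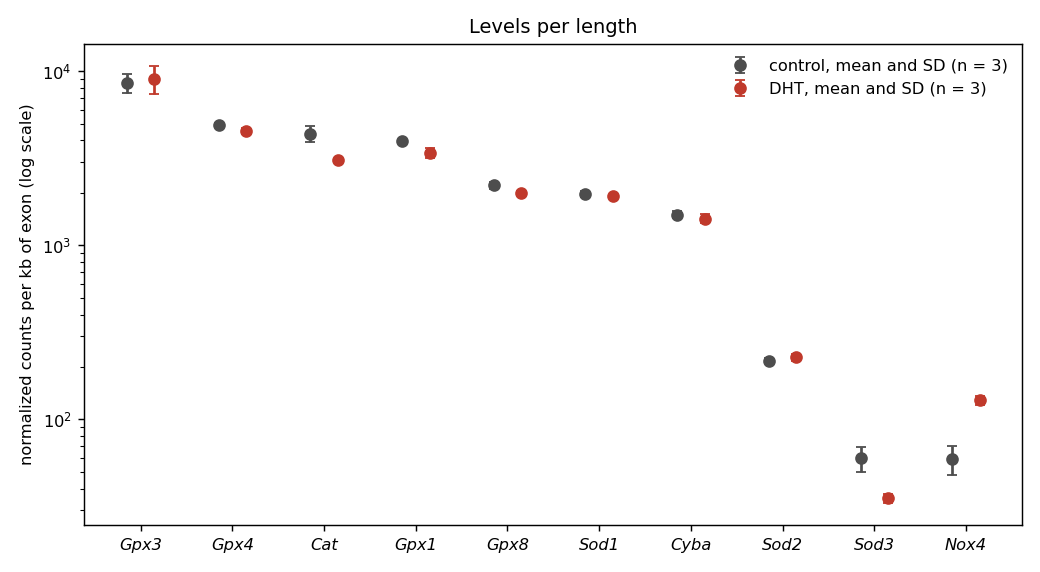
Normalized counts per kb of exon (vertical axis, log scale) for the 10 genes in falling order of the control mean, with points for the mean and bars for the SD of 3 libraries, control in grey and DHT in red. *Nox4* rises from the lowest place, 59.2, to 129 per kb, above *Sod3* at 35.2.

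Normalized counts, not divided by length, were also summed within each role. *Nox4* and *Cyba* together had 2029, 2243 and 1913 normalized counts in control and 2439.5, 2519 and 2740.3 in DHT. The 3 superoxide dismutases together had 10648, 9909.9 and 10142 in control and 9934, 10084 and 10027 in DHT. The peroxide-removing enzymes together had 46878, 42015 and 41903 in control and 35057, 40778 and 42048 in DHT. Only the sums of the oxidase chains did not overlap between the groups. DHT replicate 1 had the lowest sum of the peroxide-removing enzymes, and the lowest *Gpx3*, while the other DHT libraries lay near control replicates 2 and 3.

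The genes around these enzymes were read from lists of pathway genes, each counted by the same fit (limma, Benjamini-Hochberg adjusted p of at most 0.05). Beside them, 6.52% of all tested genes were called higher, 4.66% lower and 11.2% either way. The lists too were chosen with earlier results of these data known, so their counts are descriptions. Of 7 other glutathione peroxidases and peroxiredoxins tested, 0 were called by limma or by edgeR, 3 had an unadjusted p of at most 0.05 and DESeq2 called 2. Over all 16292 tested genes, an unadjusted p of 0.051 in limma ranked 4126 from the lowest, and DESeq2 called 1121 higher and 805 lower. All 7 had negative log2 fold changes, with a median of -0.11 against -0.01 over all tested genes. *Prdx6*, the peroxiredoxin that uses glutathione, was at -0.22 with a 95% interval of -0.37 to -0.07, and *Prdx1*, a cytosolic peroxiredoxin, was at -0.15 with one of -0.25 to -0.04. When any single control library was left out, 1 of the 7 was called.

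Of 14 other oxidases that make superoxide or peroxide, 4 fell and 0 rose, where 4.66% and 6.52% of all tested genes did, and the median log2 fold change was -0.0093. *Maoa*, monoamine oxidase A of the outer mitochondrial membrane, stood at 27038 ± 2846 normalized counts in control GCs and 20137 ± 1109.8 in DHT-treated GCs (SD, n = 3), and *Xdh*, xanthine dehydrogenase, at 377 ± 31.9 and 266 ± 29.8. The other 2 were *Aox1*, an aldehyde oxidase (log2 fold change -0.50), and *Pcyox1*, a prenylcysteine oxidase (-0.14). The count was 1 without control replicate 1 or without DHT replicate 2 and 2 without DHT replicate 1 or DHT replicate 3.

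Of the 7 genes of copper and manganese supply, 1 rose and 1 fell, where 6.52% and 4.66% of all tested genes did, so these are calls of single genes (median log2 fold change -0.02). *Slc31a1*, the copper importer, had 2988, 3019 and 2989 normalized counts in control and 3602, 3568 and 3716 in DHT, a log2 fold change of 0.27 (limma, Benjamini-Hochberg adjusted p = 0.0015), and was called under every alternative tried. *Atp7a*, which loads copper into secreted enzymes such as SOD3, was at -0.15 (limma, Benjamini-Hochberg adjusted p = 0.043), and its call was lost without any library other than control replicate 3. *Ccs*, the copper chaperone of SOD1, was at 0.04 with a 95% interval of -0.08 to 0.15.

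The selenium genes bear on *Gpx1*, *Gpx3* and *Gpx4*, whose TGA codons are shown above. Of 10 genes of selenoprotein synthesis, 1 rose, near the 6.52% of all tested genes, with a median log2 fold change of -0.05. This was *Lrp8*, a receptor that takes up selenoprotein P, with 2509, 2394 and 2148 normalized counts in control and 3398, 3155 and 2996 in DHT (log2 fold change 0.44, limma, Benjamini-Hochberg adjusted p = 0.0033). Of 14 other selenoproteins, 3 rose and 2 fell, where 6.52% and 4.66% of all tested genes did, with a median of 0.06. *Selenos* (0.27), *Selenom* (0.38) and *Selenok* (0.19) were higher, and *Selenoh* (-0.31) and *Selenow* (-0.32) were lower on the log2 fold change scale. The call of *Selenok* was lost without control replicate 1, DHT replicate 2 or DHT replicate 3.

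Of 16 genes of peroxisome assembly, which concerns the compartment of catalase, 2 rose and 0 fell, near the 11.2% of all tested genes called either way, with a median log2 fold change of 0.01. *Pex13*, a docking protein for import into the peroxisome, had 3559, 3929 and 3929 normalized counts in control and 5301, 5671 and 6266 in DHT (log2 fold change 0.59, limma, Benjamini-Hochberg adjusted p = 0.00063). The other was *Pex16* (0.26), whose call was lost when any single library was left out. *Pex5*, the receptor that carries catalase to the peroxisome, was at 0.15 with a 95% interval of 0.02 to 0.27 (limma, Benjamini-Hochberg adjusted p = 0.13).

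Of 13 regulators of antioxidant genes, 3 rose and 2 fell, where 6.52% and 4.66% of all tested genes did, with a median log2 fold change of 0.04. *Nfe2l2*, which encodes the antioxidant transcription factor NRF2, had 8491, 8033 and 7809.5 normalized counts in control and 6151, 6519 and 6415 in DHT. *Foxo3*, a transcription factor known to act on *Sod2* and *Cat*, had 6359, 5993 and 5892 in control and 8355, 8887 and 9229 in DHT. Neither gene overlapped between the groups, and their log2 fold changes were -0.35 ± 0.04 and 0.54 ± 0.05 (SE; limma, Benjamini-Hochberg adjusted p = 0.0011 and 0.00024). *Mafk*, a partner of NRF2, rose (0.42). *Nfe2l1* (0.14), whose call was lost without any single library, and *Foxo1* (-0.22), whose call was lost without any library other than control replicate 3, were also called. The count of 5 was 3 without control replicate 1, DHT replicate 1, DHT replicate 2 or DHT replicate 3.

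**Figure D5:**
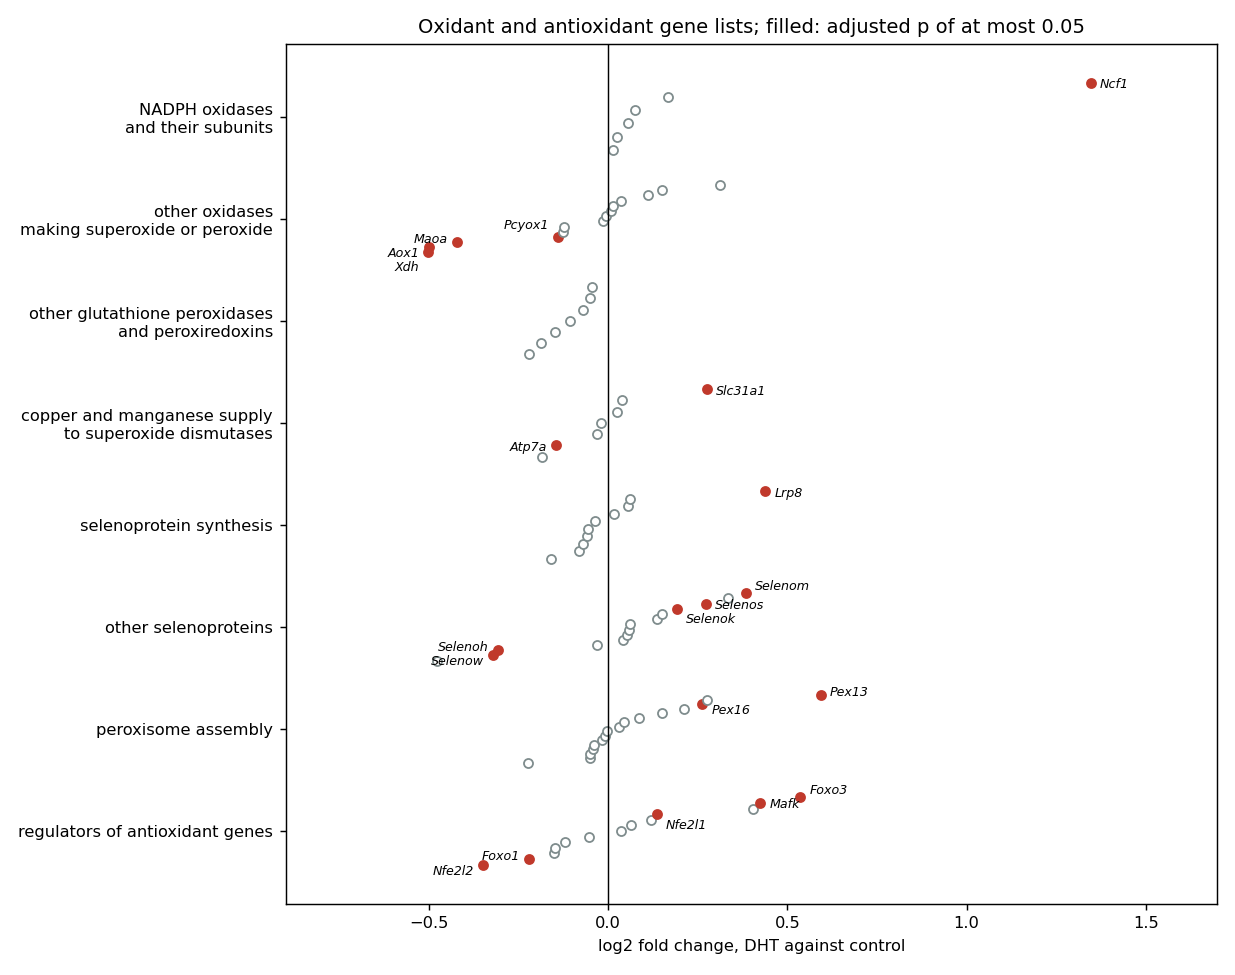
Log2 fold change, DHT against control (horizontal axis), of every tested gene in 8 pathway lists (vertical axis, spread within a list only for legibility). Red filled points with names passed an adjusted p of 0.05 in limma, from *Xdh* and *Aox1* at -0.50 to *Ncf1* at 1.35.

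The starts of the genes were searched for the binding motif of the androgen receptor and for the motif bound by NRF2, in RefSeq promoters of GRCm38.p6 from 250 bases before to 50 bases after the start. Promoters of 9 of the 10 genes were matched, and *Sod3* was not searched. The exact string of the full androgen response element, the arms AGAACA and TGTTCT with any 3 bases between them, was found in 0 of the 9 genes. It was found in 0.00913% of all 32851 promoters, so its absence from 9 genes carries little information. Imperfect copies were not searched for. A single arm, TGTTCT on either strand, was found in *Cat* and *Gpx3*, and in 19.0% of all promoters. The core of the antioxidant response element, TGACNNNGC on either strand, was found in *Sod1*, and in 12.4% of all promoters. The windows are printed on the strand of the gene, with the match in capitals, because they place the single arm in a gene that fell and in one that did not pass the test.
Cat (chr2:103485320-103485375, minus strand): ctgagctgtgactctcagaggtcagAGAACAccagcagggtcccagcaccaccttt
Gpx3 (chr11:54902696-54902751, plus strand): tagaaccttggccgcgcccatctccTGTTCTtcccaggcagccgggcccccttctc
Sod1 (chr16:90220681-90220739, plus strand): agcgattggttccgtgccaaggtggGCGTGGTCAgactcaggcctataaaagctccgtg
The matches began 197, 133 and 56 bases before the RefSeq start of *Cat*, *Gpx3* and *Sod1*. The GENCODE start of *Gpx3* given above lies upstream of this window, so the match lies within the gene as annotated there. *Nox4*, the only riser of the 10, held none of the 3 motifs in this window. A match is a string of letters and not a measured site, and its absence from 300 bases says nothing of binding elsewhere or at imperfect copies.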

How the data were processed

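Paired-end reads were trimmed (Trimmomatic 0.36) and mapped to GRCm38 (STAR 2.5.2b), and those mapping uniquely within exons were counted by featureCounts (Subread 1.5.2), as the authors state. The deposited signal is a normalized count, in which the authors had divided a gene's reads by its library's size factor from DESeq2. The annotation release and the strand setting of the counting are not given in the sources used here. The deposited columns of log2 fold change, p-value and adjusted p-value hold the authors' own comparison and were not used, and a second deposited table, which repeats 190 rows of the first, was not used. The study's filter on FPKM was not applied.

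Dividing by the smallest step of each library turned 100% of its values into whole reads, within 0.001, which summed to 36111177 to 41928585 per library. The main test was limma 3.58.1 in R 4.3.3 on log2(normalized count + 1) and an intensity trend, for genes averaging 10 or more, with Benjamini-Hochberg adjustment over all of them. On the recovered reads, quasi-likelihood tests in edgeR 4.0.16 called 1068 genes higher and 744 lower, and DESeq2 1.42.0 called 1121 and 805. The other alternatives were pseudocounts of 0.5 and 8, no filter and a mean of at least 50, TMM and quantile scaling, no intensity trend, the replicate number as a block, and each library left out. The scripts were tested on simulated data.

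Groups were taken from the treatment characteristic, since the free text on treatment names DHT for all 6 samples. No source says which libraries were made side by side, and the main test treated them as unpaired. Its p-values rest on the spread between pools of 5 mice and not between single mice. No 2 libraries of a group agreed within sampling noise (chi-square per degree of freedom of 4.995 to 15.664). The members and gene lists were chosen with earlier results of these data known. The genes named are the 10 members, up to 4 genes of each pathway list with the lowest p, the 2 most abundant genes of each marker list and the 5 genes most correlated with *Nox4*. The text adds genes past the threshold beyond these, *Selenok*, *Nfe2l1*, *Hsd17b1*, *Foxl2*, *Cnn1* and *Csf1r*, and the markers *Fshr*, *Amh*, *Ptprc*, *Cd14*, *Dcn*, *Des* and *Pdgfrb* and the oxidase chain *Cybb*, after their values were seen. Gene positions, exonic lengths and coding sequences came from GENCODE M21 on GRCm38, and promoters from RefSeq on GRCm38.p6.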

Additional observations from a re-analysis of the deposited data

How the results depend on the processing

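Of 160 values of the 10 genes under the alternatives, 155 kept their direction and their side of the threshold, 3 lost the call and 2 changed sign. All 3 lost calls were *Gpx1*, without control replicate 1, without the intensity trend (limma, Benjamini-Hochberg adjusted p = 0.11) and with the replicate block (limma, Benjamini-Hochberg adjusted p = 0.058). The sign changes were *Gpx3*, at -0.018 without control replicate 3 and -0.037 without DHT replicate 3, in a range of -0.037 to 0.23 over the libraries left out. *Nox4*, *Cat* and *Sod3* were called under every alternative tried, with Benjamini-Hochberg adjusted p, over limma, edgeR and DESeq2, of at most 0.022, 0.035 and 0.048. Without the intensity trend 501 genes were higher and 303 lower, where the test called 1063 and 760, and the gene lists fell to 0 other oxidases, 1 gene of copper and manganese supply, 2 other selenoproteins, 1 gene of peroxisome assembly and 2 regulators. With the replicate block 633 genes were higher and 357 lower, the lists held 1 other oxidase, 1 gene of copper and manganese supply, 1 of peroxisome assembly and 3 regulators, and the exact sign-flip test of *Nox4* to *Cyba* gave p = 0.25, the smallest that 3 pairs allow. The block changed no other call in the 10 genes. The numbers were not taken as pairs, since the authors' comparison names no block. Libraries that share a number deviated from their groups with correlations of 0.0058, 0.067 and -0.24. So few libraries cannot decide whether those with the same number came from the same pool. A mean of at least 50 left 131 genes past both thresholds of 213, and 0 NADPH oxidase subunits, since fewer genes were tested. DESeq2 called 2 other glutathione peroxidases and peroxiredoxins, 1 gene of copper and manganese supply and 1 of peroxisome assembly, and quantile scaling left 1 of peroxisome assembly. When each library was left out, 581 to 1237 genes were higher, 350 to 857 lower and 138 to 286 past both thresholds, and the lists held 1 to 3 other oxidases, 0 to 1 other glutathione peroxidases and peroxiredoxins, 1 to 3 genes of copper and manganese supply, 1 to 2 of peroxisome assembly and 3 to 6 regulators. The causes were not tested. With 3 libraries per group, the exact two-sided permutation test cannot reach p below 0.1.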

Other observations

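The markers of other cell types in these libraries gave the following values, in normalized counts. The 5 leukocyte markers summed to 504 to 592 in control and 409 to 647 in DHT, and the most abundant of them, *Lyz2* and *Cd68*, averaged 274 and 129 in control and 263 and 125 in DHT. The 4 endothelial markers summed to 150 to 179 in control and 141 to 199 in DHT, with *Pecam1* at 50.1 and 62.3 and *Kdr* at 35.5 and 51.6. The 6 fibroblast and stromal markers summed to 1998 to 2407 in control and 1700 to 2415 in DHT, with *Col1a1* at 1295 and 1178 and *Col1a2* at 502 and 612. The theca and interstitial markers in the table were *Ptch1* and *Nr2f2*, at 2543 and 1485 in control and 2218 and 1322 in DHT. Neither was called by limma or edgeR, both had an unadjusted p of at most 0.05 in limma, and DESeq2 called 1 of the 2. Among all 16292 tested genes, an unadjusted p of 0.051 in limma ranked 4126 from the lowest, and DESeq2 called 1121 higher and 805 lower. The oocyte markers *Gdf9* and *Zp2* were at 28.4 and 2.18 in DHT replicate 2, where the other 5 libraries held 87.1 to 257 and 61.3 to 151.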
